A study of Schmidtea mediterranea with 48 samples.

Results

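Heads and tails of control planarians were compared by RNA sequencing of 24 of the 48 libraries of the series. The 24 libraries were all those labelled as control in the series, 12 of heads and 12 of tails, with 3 libraries per tissue at each of weeks 2, 3, 4 and 5. All came from the asexual CIW4 strain of *Schmidtea mediterranea*, a freshwater flatworm that regenerates any missing body part. Control animals had been fed double-stranded RNA to *unc-22*, a muscle gene of *Caenorhabditis elegans* used as an RNAi control, and had gone 7 days without food before amputation. Heads were cut off just behind the eyes, and tails were cut between the pharynx and the tail tip, nearer to the tip, so the control heads hold the eyes and the front of the brain, and the control tails hold the posterior pole. Each library pooled several animals of a clonal strain, so the spread between libraries is a spread between pools. The other 24 libraries of the series came from *nr4A(RNAi)* animals and were used only to see whether a joint fit changed the counts.

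The anterior-posterior axis of planarians is held by genes that are expressed in restricted domains, many of them in body-wall muscle. Several Wnt ligands are expressed in the posterior and act through Frizzled receptors and beta-catenin, while others, such as *wnt2*, are expressed towards the head. Secreted Wnt inhibitors and several members of the FGF receptor-like *nou-darake* family are expressed in the anterior. Clusters of muscle cells at each tip, the poles, act as organizers, and *foxD* and *notum* at the anterior pole and *wnt1* (annotated here as *wntP-1*) at the posterior pole are their best-known genes.

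Counts on contigs of the transcriptome assembly were 16750612 to 27490960 per head library (median 19440374.5) and 17146559 to 42917781 per tail library (median 20928922.5). No pair of libraries was identical. The first principal component of the 24 libraries carried 75.3% of the variance and separated heads from tails, and the second carried 5.48%. Replicate 1 of the control tails at week 3 stood apart, with 218 of 11208 contigs more than 1 log2 unit below the mean of the other 2 libraries of its group, against at most 13 in any other library. The sample descriptions give head and tail libraries different run labels, and their count tables were made differently (isoforms were merged for heads and kept apart for tails, and rows of other RNA took 12.4 to 13.5% of the counts of head libraries and were not listed for tails). Tissue and batch therefore cannot be told apart, and no comparison within a batch was possible. In pieces of tissue, fewer cells of a type and less RNA per cell cannot be told apart either.

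The labels were checked with 7 head markers and 2 tail markers. The patterning genes among these were listed with earlier results of these data known, so their direction is no independent evidence. All the markers went in the direction of the labels, and all but *wntP-1* separated every head library from every tail library. Other patterning genes did not, since *follistatin* overlapped, *pitx* did not pass the test and *islet1*, on the posterior list, was higher in heads. The paper names *islet* and *pitx* at the anterior pole too, so these 2 do not mark the tail alone. In heads, *foxD*, *notum*, *sFRP-1*, *ndk*, *ndl-5*, *fz5/8-4* and a marker of the cephalic ganglia (dd_3524) were all above their tail values. The marker of the cephalic ganglia, which are the paired lobes of the planarian brain, was at 9.61, 12.1 and 17.3 CPM (counts relative to library size, after TMM scaling, in the lowest, median and highest library, as for all triplets that follow) in heads and at 2.30, 3.45 and 4.92 CPM in tails. In tails, *wnt11-2* and *wntP-1* were higher than in heads, *wnt11-2* with no overlap and *wntP-1* with overlapping libraries.

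Differences between head and tail were found for most of the transcriptome, although most of them were small. Of 26401 contigs in both tables, 19962 had enough counts to be tested. In the mean of the 4 weeks, 14461 contigs (72.4%) differed (edgeR quasi-likelihood F test, Benjamini-Hochberg adjusted p below 0.05), 7061 (35.4%) higher in heads and 7400 (37.1%) higher in tails. With the further requirement of at least a 2-fold difference, 3791 contigs (19%) remained, 2348 (11.8%) higher in heads and 1443 (7.23%) higher in tails. The 12 head and 12 tail libraries did not overlap at 3746 contigs (18.8%) with heads higher and at 3358 contigs (16.8%) with tails higher. The median log2 fold change of all contigs was -0.01, and the middle 50% lay between -0.32 and 0.38 (log2 fold changes are heads over tails throughout). Large differences were more often towards the head, with 619 contigs at least 4-fold higher in heads and 505 in tails, and 168 at least 16-fold higher in heads and 57 in tails.

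**Figure D1:**
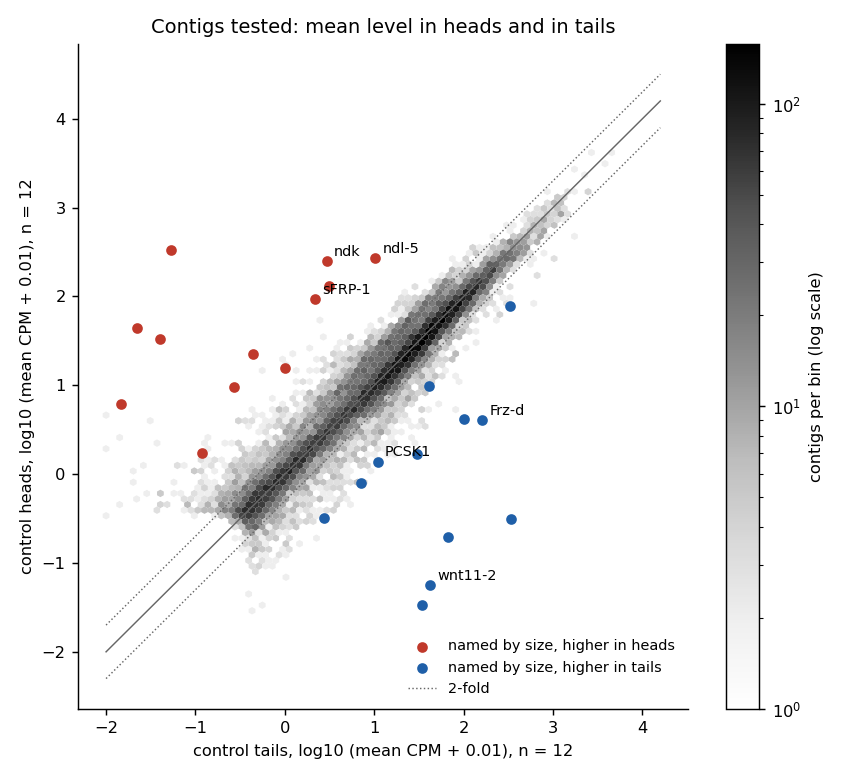
Mean level of each tested contig in control heads (vertical axis) and in control tails (horizontal axis), as log10 of mean CPM plus 0.01, over 12 libraries each. Grey bins count contigs, the solid line marks equal levels, dotted lines mark a 2-fold difference, and coloured points are the contigs named by the size of their difference, 12 of them higher in heads (red) and 12 higher in tails (blue).

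The genes listed for anterior patterning were higher in heads without exception. They were listed for their known anterior roles, and chosen with earlier results of these data known. Their shared direction is therefore no independent evidence, and the values describe its size. All 17 members passed the test in that direction (35.4% of all contigs did), 14 of them by at least 2-fold (11.8%), and 16 had no overlap between tissues (18.8%). The median log2 fold change of the 17 genes was 3.61, beside -0.01 for all contigs. The size of the difference varied widely among them, with log2 fold changes between 0.16 and 6.41.

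The *nou-darake* family had 3 of the 4 largest differences in this group, beside *sFRP-1*, and encodes FGF receptor-like membrane proteins without a kinase domain. *ndk* (dd_11285), the founding member, whose loss lets brain tissue spread into the body, was at 235, 247 and 270 CPM in heads and at 2.04, 2.83 and 4.19 CPM in tails. Its lowest head library was therefore far above its highest tail library. Its mean was 85.0-fold higher in heads (log2 fold change 6.41 ± 0.050, approximate SE from the F test, adjusted p = 4.00e-32). *NDK-4* (dd_12674, also *ndl-4*) was at 121, 132 and 140 CPM in heads and at 2.36, 3.16 and 3.87 CPM in tails (log2 fold change 5.37 ± 0.056; adjusted p = 1.02e-29). *ndl-5* (dd_5102) was at 253, 271 and 288 CPM in heads and at 7.90, 10.4 and 11.9 CPM in tails (log2 fold change 4.72 ± 0.037; adjusted p = 4.00e-32). All 3 listed family members thus separated the tissues by a wide gap in every library. The paper also names *ndl-2* and *ndl-3*, which were not on the list.

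Inhibitors of Wnt signalling did not share a single size of difference. *sFRP-1* (dd_13985), which encodes a secreted Frizzled-related protein that binds Wnt ligands, was at 77.3, 95.2 and 101 CPM in heads and at 1.74, 2.19 and 2.50 CPM in tails. The gap between tissues was wide for this gene too, with a log2 fold change of 5.44 ± 0.061 (adjusted p = 5.69e-29). *notum* (dd_24180), which encodes an enzyme that inactivates Wnt ligands and marks the anterior pole, was at 5.06, 6.86 and 8.67 CPM in heads and at 1.01, 1.797 and 2.13 CPM in tails (log2 fold change 1.95 ± 0.095; adjusted p = 7.17e-16). The *notum* libraries did not overlap, although the gene was detected in all 12 tail libraries. *sFRP-3* (dd_11070) differed less, at 32.5, 36.1 and 38.9 CPM in heads and 22.2, 23.7 and 31.0 CPM in tails (log2 fold change 0.55 ± 0.037; adjusted p = 5.72e-13). A contig similar to Wnt inhibitory factors, *wif-like* (dd_25158), had a log2 fold change of 1.17 ± 0.15 (adjusted p = 1.22e-07).

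Frizzled receptors fell on both sides. *fz5/8-4* (dd_11823), *fzd-5/8-3* (dd_16571) and *fzd-5/8-2* (dd_17168) were higher in heads, with log2 fold changes of 3.82 ± 0.047, 3.97 ± 0.050 and 3.71 ± 0.11. *fz5/8-4* was at 118, 124 and 128 CPM in heads and at 6.36, 8.93 and 10.01 CPM in tails. A further contig named *FZD5* (dd_31236) had 424 counts in all heads together and 26 in all tails together, with a log2 fold change of 4.01 ± 0.22 (adjusted p = 9.13e-15). *Frz-d* (dd_11650), also annotated as a Frizzled receptor, ran the other way. It was at 3.36, 4.01 and 4.98 CPM in heads and at 144, 158.3 and 198 CPM in tails, a mean 39.9-fold higher in tails (log2 fold change -5.32 ± 0.043; adjusted p = 5.36e-32). The 4 head-high Frizzled contigs and the tail-high one each kept head and tail libraries apart.

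Transcription factors of the anterior were also higher in heads. *zicA* (dd_22585) and *zic-2* (dd_15531) encode zinc-finger proteins of the Zic family. *zicA* was at 13.3, 15.8 and 18.5 CPM in heads and at 0.602, 1.03 and 1.27 CPM in tails (log2 fold change 4.00 ± 0.084; adjusted p = 2.03e-23), and *zic-2* had a log2 fold change of 3.56 ± 0.045 (adjusted p = 5.17e-28). *foxD* (dd_23249), a forkhead factor needed for the anterior pole, was sparsely counted at 1.62, 2.55 and 3.89 CPM in heads and 0.394, 0.807 and 1.33 CPM in tails. Its libraries still did not overlap, and its log2 fold change was 1.802 ± 0.15 (adjusted p = 4.98e-11). *prep* (dd_8606), a TALE-class homeobox gene required for anterior identity, was at 119, 128 and 133 CPM in heads and at 32.1, 36.7 and 42.5 CPM in tails (log2 fold change 1.78 ± 0.031; adjusted p = 4.81e-25). The LIM-homeobox genes *arrowhead* (dd_47123) and *islet2* (dd_35379) had log2 fold changes of 2.07 ± 0.15 and 0.97 ± 0.11, and neither overlapped between tissues. *musculin* (dd_16070), a basic helix-loop-helix factor, rested on 105 counts over the 12 heads and 8 over the 12 tails (log2 fold change 3.61 ± 0.40; adjusted p = 1.15e-08).

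One anterior gene hardly differed. *follistatin* (dd_9584), which encodes a secreted inhibitor of Activin, was at 35.8, 39.9 and 46.6 CPM in heads and at 31.5, 36.1 and 41.3 CPM in tails. The tissues overlapped, the log2 fold change was 0.16 ± 0.042 (adjusted p = 0.00123), and the gene passed the test in 2 of the 4 weeks.

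**Figure D2:**
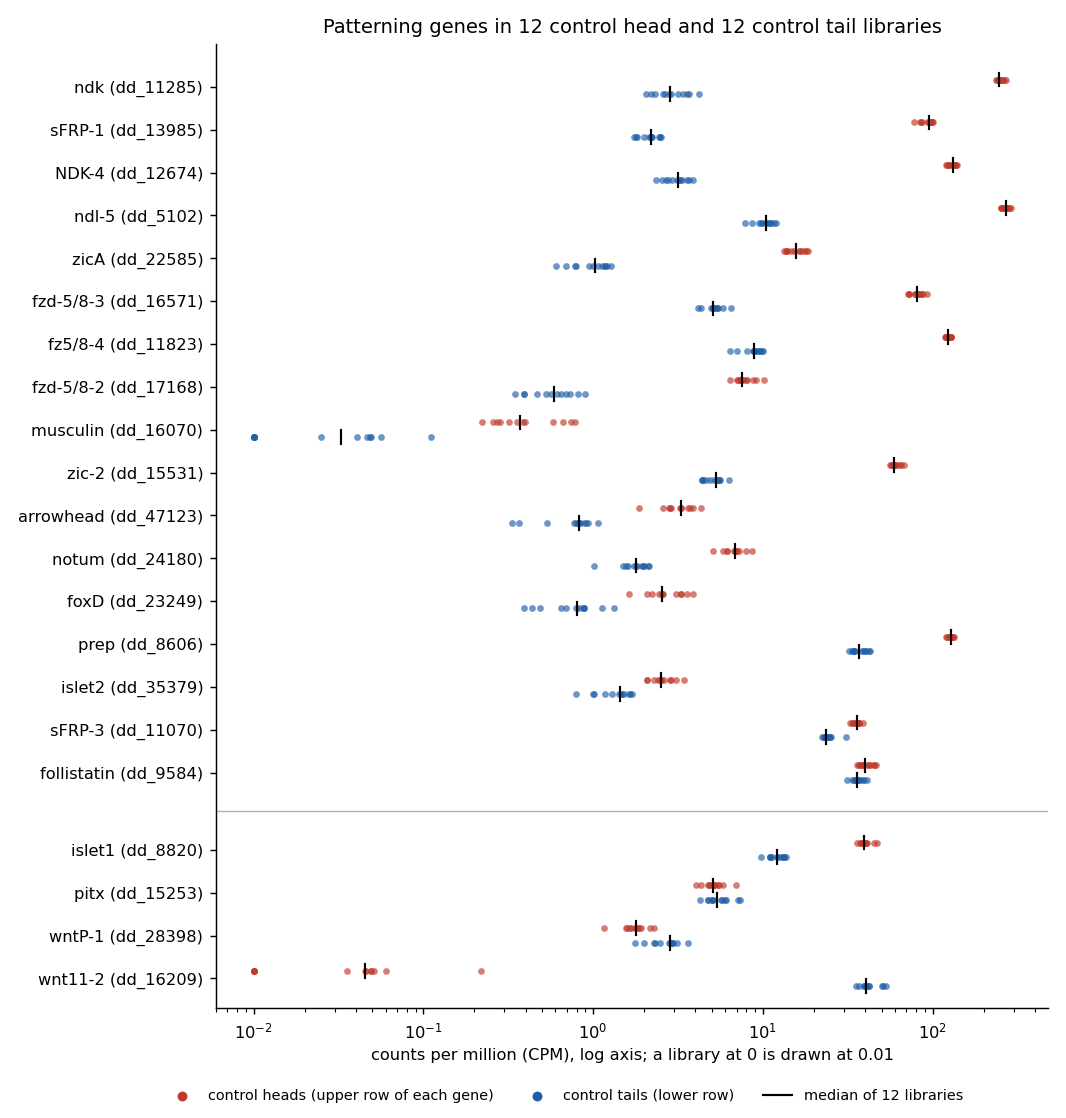
Level of each anterior patterning gene (above the line) and each posterior patterning gene (below the line) in CPM on a log axis, with 1 point per library, 12 control heads in red above 12 control tails in blue, a black tick at each median, and libraries at 0 drawn at 0.01. Heads are to the right of tails without overlap in all anterior genes but *follistatin*, and *wnt11-2* is at a median of 0.0454 CPM in heads and 40.7 CPM in tails.

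The posterior patterning list was short and its members did not behave alike. Of its 4 genes, 1 was higher in heads, 2 were higher in tails and 1 did not pass the test, and the median log2 fold change was -0.35. With 35.4% of all contigs higher in heads and 37.1% higher in tails, counts this small are near the background. *wnt11-2* (dd_16209), which encodes a Wnt ligand expressed at the tail tip, was at 0, 0.0454 and 0.220 CPM in heads and at 35.2, 40.7 and 53.0 CPM in tails. Heads held 11 counts of it in all, against 11053 counts in tails, and its log2 fold change was -9.75 ± 0.14 (adjusted p = 1.12e-26). With so few head counts, this approximate SE is smaller than counting error alone. *wntP-1* (dd_28398), the Wnt ligand of the posterior pole, was at 1.16, 1.79 and 2.27 CPM in heads and at 1.76, 2.82 and 3.61 CPM in tails. The tissues overlapped for *wntP-1*, which was higher in tails with a log2 fold change of -0.58 ± 0.097 (adjusted p = 7.42e-06) and passed in 2 of the 4 weekly fits.

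Both homeobox genes on the posterior list are also known from neurons. The paper also names *islet* and *pitx* among genes of the anterior pole, and describes *islet1* as needed for forming both poles. *pitx* (dd_15253), a paired-class factor of serotonergic neurons and of both poles, was at 4.03, 5.12 and 6.93 CPM in heads and at 4.28, 5.36 and 7.32 CPM in tails, and did not pass the test (log2 fold change -0.11 ± 0.082; adjusted p = 0.232). *islet1* (dd_8820), a LIM-homeobox factor, was at 36.1, 39.6 and 46.95 CPM in heads and at 9.74, 12.2 and 13.7 CPM in tails. It was therefore higher in heads without overlap (log2 fold change 1.73 ± 0.038; adjusted p = 3.85e-23).

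Other parts of the Wnt pathway, beyond the genes used for patterning, split between the tissues, and all 10 contigs of the list passed the test (72.4% of all contigs did), 6 higher in heads (35.4% of all contigs) and 4 higher in tails (37.1%, near this share), with a median log2 fold change of 0.30. Among the 6 contigs with a single row in the tail table, 3 were higher in heads and 3 higher in tails. On the tail side, besides *Frz-d*, were both contigs similar to *Evi/Wls*, a protein that carries Wnt ligands to the cell surface. One of them (dd_9546) was at 12.4, 13.8 and 16.7 CPM in heads and at 30.2, 34.8 and 40.1 CPM in tails (log2 fold change -1.31 ± 0.045; adjusted p = 3.93e-19), and the other (dd_11629) had a log2 fold change of -1.33 ± 0.070 (adjusted p = 3.26e-15). The planar polarity gene *Vang-2* was on the same side by a small amount (log2 fold change -0.11 ± 0.036; adjusted p = 0.00845), with overlapping libraries and no weekly fit past the threshold, and its call was lost under 5 alternatives, among them scaling by total counts (adjusted p = 0.474), leaving out week 4 (adjusted p = 0.226) and leaving out replicate 1 or replicate 3 of the control heads at week 5 (adjusted p = 0.0592 and 0.0513). On the head side, *ror* and *ryk*, which encode receptor kinase-like proteins for Wnt ligands, had log2 fold changes of 0.78 ± 0.030 and 0.70 ± 0.038. *beta-catenin-1*, the transcriptional effector of the pathway, was at 385, 417 and 439 CPM in heads and at 248, 297 and 317 CPM in tails (log2 fold change 0.49 ± 0.028; adjusted p = 2.42e-14). The kinase gene *NLK-1* was nearest to equal among the head-high ones (log2 fold change 0.11 ± 0.025; adjusted p = 0.000254).

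Of 7 components of the BMP pathway, which patterns the dorsal-ventral axis, 3 were higher in heads (35.4% of all contigs were), none was higher in tails and 4 did not pass, with a median log2 fold change of 0.05. The 3 had no overlap between tissues (18.8% of all contigs had none with heads higher). The count and the median depended on the processing, with 7 higher in heads when libraries were scaled by total counts alone, 5 without replicate 1 of the control tails at week 3, and 4 of 5 at a median of 0.64 among contigs with a single row in the tail table. The 3 were the ligand gene *BMP* (dd_17402; log2 fold change 0.88 ± 0.072), the BMP-binding *noggin-1* (0.67 ± 0.067 on the same scale) and the pseudoreceptor gene *bambi* (0.61 ± 0.058), and none reached 2-fold. *BMP* was at 6.82, 7.65 and 8.53 CPM in heads and at 3.26, 4.11 and 5.42 CPM in tails, without overlap. The signal transducers *smad4* and *Smad1*, the receptor gene *ACVR1* and the protease gene *TLL1* had log2 fold changes between 0.01 and 0.05, with adjusted p between 0.175 and 0.695.

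Genes of the Notch, Hedgehog, FGF and EGF pathways differed in both directions, in shares near those of all contigs. Of 8 contigs, 4 were higher in heads (35.4% of all contigs), 2 were higher in tails (37.1%) and 2 did not pass, none reached 2-fold, and the median log2 fold change was 0.23. Among the 5 with a single row in the tail table, 2 were higher in heads and 2 higher in tails, at a median of 0.00. The receptor gene *NOTCH1* (log2 fold change -0.44 ± 0.043) and the ligand gene *DLL1* (-0.33 ± 0.037 on the same scale) were higher in tails, while *NOTCH2* (0.50 ± 0.059) and the ligand gene *JAG1* (0.48 ± 0.033) were higher in heads. *patched*, which encodes the Hedgehog receptor, was at 55.2, 59.5 and 64.1 CPM in heads and at 36.3, 39.3 and 42.3 CPM in tails, without overlap (log2 fold change 0.59 ± 0.032; adjusted p = 5.07e-15). The ligand gene *egf-6* also did not overlap (log2 fold change 0.58 ± 0.041; adjusted p = 1.60e-12). *smoothened*, the Hedgehog transducer, and *FGFR4* had log2 fold changes of -0.03 and -0.04 (adjusted p = 0.377 and 0.32).

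Neural genes were mostly higher in heads, which hold the front of the brain. Of 32 members, 21 were higher in heads (7 by at least 2-fold), 8 were higher in tails (3 by at least 2-fold) and 3 did not pass, and the median log2 fold change was 0.58. Of all contigs, 35.4% were higher in heads (11.8% by at least 2-fold) and 37.1% higher in tails (7.23% by at least 2-fold), so the 3 at least 2-fold higher in tails are near the background. The summed level of the 32 contigs was 1932, 2093 and 2152 CPM in heads and 1275, 1326 and 1396 CPM in tails, without overlap. *CNGA3* (dd_22398), similar to a subunit of cyclic nucleotide-gated channels, was at 10.3, 11.7 and 12.2 CPM in heads and at 2.05, 2.64 and 3.60 CPM in tails (log2 fold change 2.09 ± 0.059; adjusted p = 7.77e-21). *SYT11* (dd_7243), similar to a synaptotagmin of vesicle traffic, was at 101.5, 121 and 137 CPM in heads and at 24.9, 29.8 and 34.4 CPM in tails (log2 fold change 2.02 ± 0.043; adjusted p = 2.52e-23). *CNGA3* and *SYT11* thus kept the tissues apart in every library. Of the 32 members, 17 had no overlap with heads higher and 3 with tails higher, beside 18.8% and 16.8% of all contigs.

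A few neural genes were higher in tails by a clear margin. *PCSK1* (dd_8406), similar to a prohormone convertase that processes neuropeptides, was at 0.633, 1.40 and 1.98 CPM in heads and at 5.61, 9.89 and 16.4 CPM in tails (log2 fold change -2.96 ± 0.15; adjusted p = 7.93e-16). *prohormone convertase 2* (dd_1566), named after its values were seen because it belongs to the same enzyme family, was opposite in direction, at 460, 528 and 573 CPM in heads and at 194, 213 and 237 CPM in tails (log2 fold change 1.30 ± 0.029; adjusted p = 5.92e-23). These convertases therefore separated the tissues without overlap in opposite directions. *CACNA1B* (dd_15815), similar to a voltage-gated calcium channel, had a log2 fold change of -1.94 ± 0.13 (adjusted p = 2.79e-13). *GAD1* (dd_12653), the enzyme that makes the transmitter GABA and the remaining neural member at least 2-fold higher in tails, was at 8.17, 9.70 and 11.4 CPM in heads and at 18.6, 21.7 and 25.6 CPM in tails (log2 fold change -1.16 ± 0.058; adjusted p = 1.02e-15). *NMUR2*, *CNTN2* and *KCND3* were the 3 that did not pass, with log2 fold changes of -0.06, 0.04 and 0.08.

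Axon guidance genes moved mainly towards the head. Of 16 contigs, 12 were higher in heads, 2 were higher in tails and 2 did not pass, with a median log2 fold change of 0.54, beside 35.4% higher in heads and 37.1% higher in tails for all contigs. By at least 2-fold, 2 were higher in heads and 1 in tails, which is near the background of 11.8% and 7.23%. *UNC5B* (dd_18393), similar to a netrin receptor, was at 18.1, 21.0 and 23.3 CPM in heads and at 5.33, 7.43 and 8.996 CPM in tails (log2 fold change 1.49 ± 0.056; adjusted p = 2.73e-18), and *EPHA2* (dd_39545), similar to an ephrin receptor, had a log2 fold change of 1.02 ± 0.097 (adjusted p = 5.46e-10). A contig similar to *KAL1* (dd_13188), which encodes an extracellular matrix protein, was at 1.48, 1.90 and 2.31 CPM in heads and at 3.99, 4.73 and 5.71 CPM in tails (log2 fold change -1.31 ± 0.084; adjusted p = 2.01e-13). The other tail-high contig was also similar to *KAL1* (dd_6746; log2 fold change -0.43), while another such contig (dd_10075) was among those higher in heads (log2 fold change 0.60), values given because the 3 share a name. One contig similar to *UNC5C* (dd_10730) was higher in heads (log2 fold change 0.83 ± 0.032; adjusted p = 3.85e-18), whereas another (dd_16435; log2 fold change 0.02) and a contig similar to *EPHA4* (dd_16483; log2 fold change 0.02) did not pass.

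Genes of motile cilia were higher in heads as a group. All 16 members passed in that direction (35.4% of all contigs), 8 by at least 2-fold (11.8%) and 15 without overlap (18.8%), with a median log2 fold change of 1.01. Planarians glide on cilia of the ventral epidermis, and their excretory flame cells are ciliated too. The summed level of the 16 contigs was 2812, 3132 and 3376 CPM in heads and 1344, 1541 and 1762 CPM in tails, with no overlap. *DNAHb-1* (dd_3670), an axonemal dynein heavy chain, was at 662, 823 and 944 CPM in heads and at 222, 296 and 385 CPM in tails (log2 fold change 1.47 ± 0.056; adjusted p = 3.55e-18). *foxJ1-like 1* (dd_14635), a forkhead factor whose vertebrate counterparts drive ciliogenesis, was at 13.8, 15.3 and 18.3 CPM in heads and at 4.71, 6.10 and 7.45 CPM in tails (log2 fold change 1.34 ± 0.064; adjusted p = 3.86e-16). *WDR96* (dd_10271), another gene of the axoneme, had a log2 fold change of 1.32 ± 0.041, and a sparsely counted *DNAH10* contig (dd_49372) had 1.99 ± 0.21 on the same scale. The smallest difference in the list was a log2 fold change of 0.23.

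Markers of dividing cells and of epidermal progenitors went the other way. Of 9 members, 1 was higher in heads and 8 were higher in tails, 2 of these by at least 2-fold and 7 without overlap, and the median log2 fold change was -0.57. Of all contigs, 37.1% were higher in tails, 7.23% by at least 2-fold and 16.8% without overlap. Their summed level was 594, 655 and 679 CPM in heads and 844, 951 and 1062 CPM in tails, without overlap. *RNR M2* (dd_5862), the small subunit of ribonucleotide reductase that supplies deoxynucleotides, was at 10.5, 12.6 and 13.9 CPM in heads and at 22.1, 26.2 and 36.7 CPM in tails (log2 fold change -1.09 ± 0.054; adjusted p = 7.40e-16). *EXO1* (dd_14547), similar to a DNA repair exonuclease, differed more, at 0.641, 0.732 and 0.995 CPM in heads and at 5.31, 7.05 and 8.90 CPM in tails (log2 fold change -3.12 ± 0.082; adjusted p = 1.55e-21). The RNA helicase gene *VASA-2* and the stem-cell factor gene *SOXP-2* had log2 fold changes of -0.83 ± 0.042 and -0.69 ± 0.037, and the epidermal progenitor marker *agat-1* had -0.56 ± 0.027 on the same scale. The exception was *PLK1* (dd_13738), similar to a mitotic kinase, at 17.5, 19.5 and 21.5 CPM in heads and at 12.4, 13.4 and 16 CPM in tails (log2 fold change 0.50 ± 0.043; adjusted p = 6.98e-11).

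Muscle genes as a group had like levels in both tissues. The summed level of 13 collagen contigs, which planarian muscle makes, was 10453, 12280 and 13600 CPM in heads and 10760, 11234 and 13968 CPM in tails. That of 13 contractile contigs was 11902, 13236 and 15136 CPM in heads and 11836, 13237 and 15811 CPM in tails. Both sums overlapped almost fully. Of the collagens, 5 were higher in heads, 2 were higher in tails and 6 did not pass, and log2 fold changes ran between -0.12 and 0.14. Of the contractile genes, 4 were higher in heads, 5 were higher in tails and 4 did not pass, with log2 fold changes between -0.39 and 0.34. These shares of calls are near those of all contigs (35.4% higher in heads and 37.1% higher in tails). By size the lists were below all contigs, since none of the 26 contigs reached 2-fold and 19% of all contigs did. *CAPZB* was the only one of them without overlap, at 189, 210.9 and 229 CPM in heads and at 247, 265 and 339 CPM in tails. Of all contigs, 18.8% had no overlap with heads higher and 16.8% with tails higher. The largest differences were in the actin-capping gene *CAPZB* (dd_1165; -0.39 ± 0.037), the actin cross-linker gene *ACTN2* (dd_10174; 0.34 ± 0.051), the calcium pump gene *ATP2A2* (dd_1772; 0.32 ± 0.030) and the sarcomere gene *TTN* (dd_3381; 0.27 ± 0.033). The largest collagen differences were 0.14 ± 0.042 for *COL1A2* (dd_840), 0.14 ± 0.047 and -0.12 ± 0.046 for 2 contigs similar to *COL4A6* (dd_2337 and dd_1579), and 0.12 ± 0.038 for *COL2A1* (dd_1070). The counts moved with the processing, and over all alternatives 1 to 9 collagens were higher in heads (1 in a fit of all 48 libraries, 9 with total counts alone) and 0 to 3 higher in tails, and 3 to 7 and 4 to 5 contractile genes. Leaving out 1 library gave 3 to 6 collagens higher in heads and 0 to 3 higher in tails, with 3 higher in heads without replicate 1 or 2 of the control heads at week 2, replicate 3 at week 3 or replicate 1 at week 4, or without replicate 3 of the control tails at week 2, 3, 4 or 5 or replicate 2 at week 4. Without replicate 1 of the control tails at week 3, 6 contractile genes were higher in heads and 4 higher in tails.

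**Figure D3:**
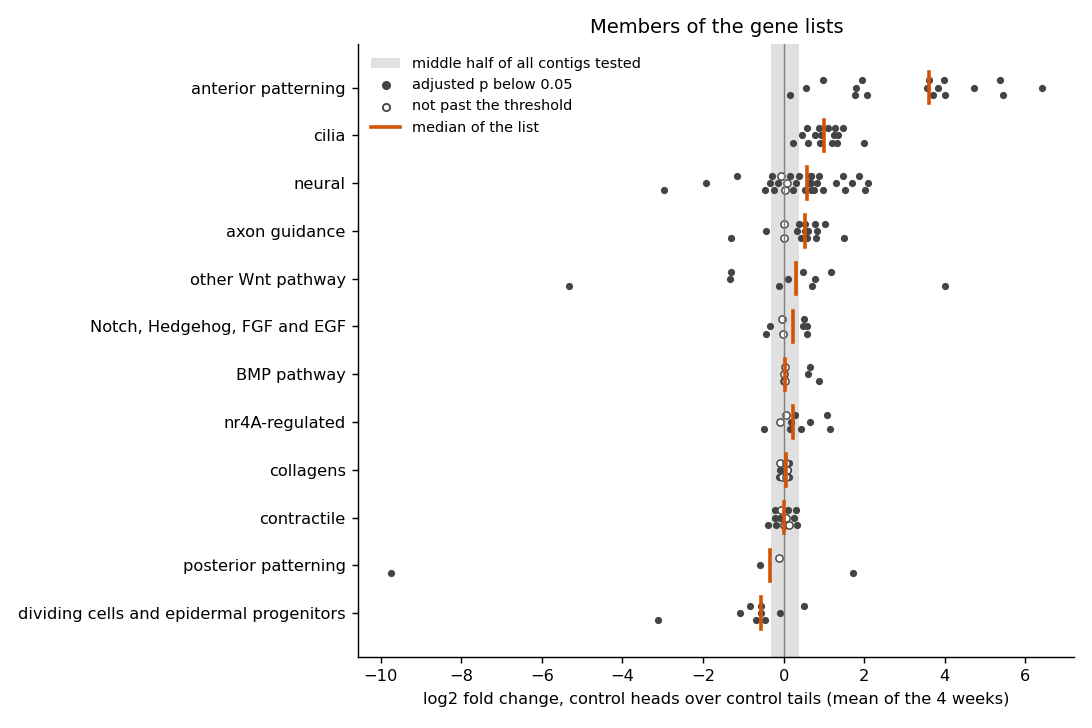
Log2 fold change (control heads over control tails, mean of the 4 weeks) of each member of 12 gene lists, with filled points for members past the test, open points for those not past it, an orange bar at each list's median, and grey shading for the middle 50% of all contigs, between -0.32 and 0.38. The anterior patterning genes (median 3.61) and cilia genes (median 1.01) are all right of 0, the collagens and contractile genes stay near 0, and *wnt11-2* is the point at -9.75.

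*nr4A* (dd_12229), the nuclear receptor gene that the series targeted in its other libraries, was expressed at both ends of the control animals. It was at 23.8, 25.8 and 28.2 CPM in heads and at 18.4, 21.6 and 25.5 CPM in tails. The tissues overlapped, and the level was higher in heads with a log2 fold change of 0.25 ± 0.047 (adjusted p = 3.07e-05). The other muscle transcription factor genes, *MyoD* (log2 fold change -0.10; adjusted p = 0.165) and *NKX1-2* (-0.08; adjusted p = 0.463), did not pass.

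Contigs that the study reported as regulated by *nr4A* were chosen on libraries of this series, so their selection is not independent of these samples. Only those that the paper names as cloned were listed here, which are a part of the genes it reported as changed. The counts below describe that part and not the full set. Of 10 contigs, 7 were higher in heads (2 by at least 2-fold), 1 was higher in tails and 2 did not pass, with a median log2 fold change of 0.23, beside 35.4% of all contigs higher in heads (11.8% by at least 2-fold) and 37.1% higher in tails. *vim* (dd_950), similar to intermediate filament genes, was at 455, 584 and 1088 CPM in heads and at 144, 293 and 548 CPM in tails (log2 fold change 1.08 ± 0.080; adjusted p = 3.74e-12), with overlapping libraries. *pcdh11y* (dd_9677), similar to a protocadherin of cell adhesion, was at 27.9, 31.2 and 34.1 CPM in heads and at 12.4, 14.2 and 15.8 CPM in tails (log2 fold change 1.15 ± 0.046; adjusted p = 9.11e-18), without overlap. A contig annotated here as *TUBA3D* (dd_508), which the paper lists without a gene name, did not overlap between tissues either (log2 fold change 0.66 ± 0.049). Nor did the carbonic anhydrase gene *ca12* (0.42 ± 0.029). *hspb1*, dd_2972 and *mmp19* were higher in heads by log2 fold changes of 0.28, 0.17 and 0.16, with overlapping libraries. *psapl1* (dd_1706) was the member higher in tails, at 327, 374 and 433 CPM in heads and 406, 521 and 716 CPM in tails (log2 fold change -0.48 ± 0.043; adjusted p = 1.40e-10). *qki* (log2 fold change -0.10; adjusted p = 0.101) and *col21a1* (0.05; adjusted p = 0.355) did not pass.

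Longer lists of contigs, which the study took from other libraries as enriched at the poles or in *nr4A*-positive muscle, were also read in heads and tails, from copies that may hold fewer contigs than the study's own lists. Of all contigs, 35.4% were higher in heads and 37.1% higher in tails, 11.8% and 7.23% by at least 2-fold. Of 171 tested contigs enriched in anterior pole pieces of uninjured animals, 121 were higher in heads and 36 higher in tails, 49 and 10 of them by at least 2-fold, with a median log2 fold change of 0.48. Of 72 enriched in anterior pole pieces of blastemas, 60 were higher in heads and 7 higher in tails, 36 and 4 by at least 2-fold, with a median of 0.99. Of 187 enriched in posterior pole cells, 100 were higher in heads and 57 higher in tails, 34 and 12 by at least 2-fold, with a median of 0.14, and the tail counts are near the background. Of 575 enriched in *nr4A*-positive muscle cells, 196 were higher in heads and 271 higher in tails, 28 and 18 by at least 2-fold, with a median of -0.06, and under scaling by total counts alone these became 248 and 212 with a median of 0.02. The head count of this list is near the background, and fewer of its members than of all contigs reached 2-fold. The 10 contigs of the uninjured anterior pole list that were at least 2-fold higher in tails included *wnt11-2* and *Frz-d*.

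The contigs with the largest differences had levels near 0 in one of the tissues. Names were at hand for 645 of 948 contigs on the study's lists of pole-enriched and *nr4A*-positive muscle contigs, so contigs named here by size come from those lists. A contig named *Smed-asns* (dd_25387) was at 29.4, 33.4 and 37.5 CPM in heads and at 0, 0 and 0.177 CPM in tails, with 8 counts in all tails together (log2 fold change 10.28 ± 0.15; adjusted p = 3.07e-25). A second contig similar to asparagine synthetase, *ASNS* (dd_22615), was at 5.13, 6.02 and 7.15 CPM in heads and had 1 count in all tails, a ratio with a 95% counting interval of 284 to 62552. Whether these contigs share reads was not examined here. *PGD* (dd_8829), similar to an enzyme of the pentose phosphate pathway, was at 16.4, 23.4 and 26.6 CPM in heads and at 0.195, 0.446 and 0.702 CPM in tails (log2 fold change 5.69 ± 0.10; adjusted p = 1.12e-24). *NKX2-4* (dd_33456), similar to a homeobox gene of the vertebrate forebrain and thyroid, was at 7.08, 9.29 and 12.2 CPM in heads and at 0.106, 0.194 and 0.644 CPM in tails (log2 fold change 5.24 ± 0.15; adjusted p = 8.44e-21). None of these 4 contigs overlapped between the tissues.

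On the tail side, a contig annotated as a hypothetical protein (dd_4427) was at 0, 0.230 and 0.290 CPM in heads and at 56.01, 67.3 and 82.2 CPM in tails (log2 fold change -8.52 ± 0.12; adjusted p = 2.46e-27). It was followed in size, after *Frz-d*, by tr5_12233 (dd_13065; -4.60 ± 0.053 on the log2 scale) and by *GUCY1B2* (dd_12650), similar to a guanylate cyclase subunit, at 1.38, 1.72 and 1.99 CPM in heads and at 27.2, 29.6 and 33.98 CPM in tails (log2 fold change -4.16 ± 0.061; adjusted p = 1.12e-26). All of these kept heads below tails in every library. *ULK2* (dd_19210), similar to a kinase of autophagy, had a log2 fold change of -3.10 ± 0.15 (adjusted p = 6.13e-16). *ALDH2* (dd_1339), similar to mitochondrial aldehyde dehydrogenase, was at 65.7, 78.9 and 101 CPM in heads and at 295, 325 and 375 CPM in tails (log2 fold change -2.09 ± 0.043; adjusted p = 1.14e-23). *ACSS3* (dd_8062), similar to a short-chain acyl-CoA synthetase, had a log2 fold change of -2.07 ± 0.069 (adjusted p = 1.97e-19).

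Contigs without a name at hand reached still larger values. Names were at hand mainly for contigs on the study's lists, so lacking one here does not mark an uncharacterised gene. dd_15036 was at 281, 341 and 369 CPM in heads and at 0, 0.0244 and 0.202 CPM in tails, with 12 counts in all tails (log2 fold change 12.80 ± 0.12; adjusted p = 5.63e-31). dd_34399 was at 32.9, 43.9 and 49.5 CPM in heads and had 3 counts in all tails, a ratio with a 95% counting interval of 1296 to 18370. In the other direction, dd_12467 had 6 counts in all heads and was at 30.6, 33.3 and 42.8 CPM in tails (log2 fold change -10.53 ± 0.15; adjusted p = 5.01e-25). dd_365 was at 0.0601, 0.166 and 0.935 CPM in heads and at 296, 330 and 461 CPM in tails (log2 fold change -10.24 ± 0.15; adjusted p = 5.84e-27). A further 7 contigs had no count in any tail library and a mean of 1.52 to 6.82 CPM in heads, which is at least 131-fold to at least 590-fold higher than a floor of 3 counts over the 12 tails, whereas no contig with a tail mean of at least 1 CPM was at 0 in all heads.

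The head-tail differences were read separately in each week, with 3 head and 3 tail libraries per fit. At week 2, 11526 of 18736 contigs (61.5%) differed, at week 3 9210 of 18254 (50.5%), at week 4 10816 of 19033 (56.8%) and at week 5 11199 of 18600 (60.2%). By at least 2-fold, 2218 (11.8%), 2297 (12.6%), 2091 (11%) and 2144 (11.5%) contigs were higher in heads, and 1403 (7.49%), 1294 (7.09%), 1273 (6.69%) and 1241 (6.67%) were higher in tails, at weeks 2, 3, 4 and 5. Libraries varied most at week 3, with a biological coefficient of variation of 11.3% against 5.26, 6.26 and 5.71% at weeks 2, 4 and 5, and week 3 holds the tail library that stood apart. Of the 3791 contigs with a 2-fold difference in the mean of the weeks, 3261 were tested in all 4 weekly fits, 3260 of these had the same sign in all of them and 3152 passed in all of them. *ndk* had weekly log2 fold changes between 6.19 and 6.74, *sFRP-1* between 5.37 and 5.49, *notum* between 1.79 and 2.12, *foxD* between 1.61 and 1.95, *Frz-d* between -5.58 and -5.18, and *wnt11-2* between -10.09 and -8.93.

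**Figure D4:**
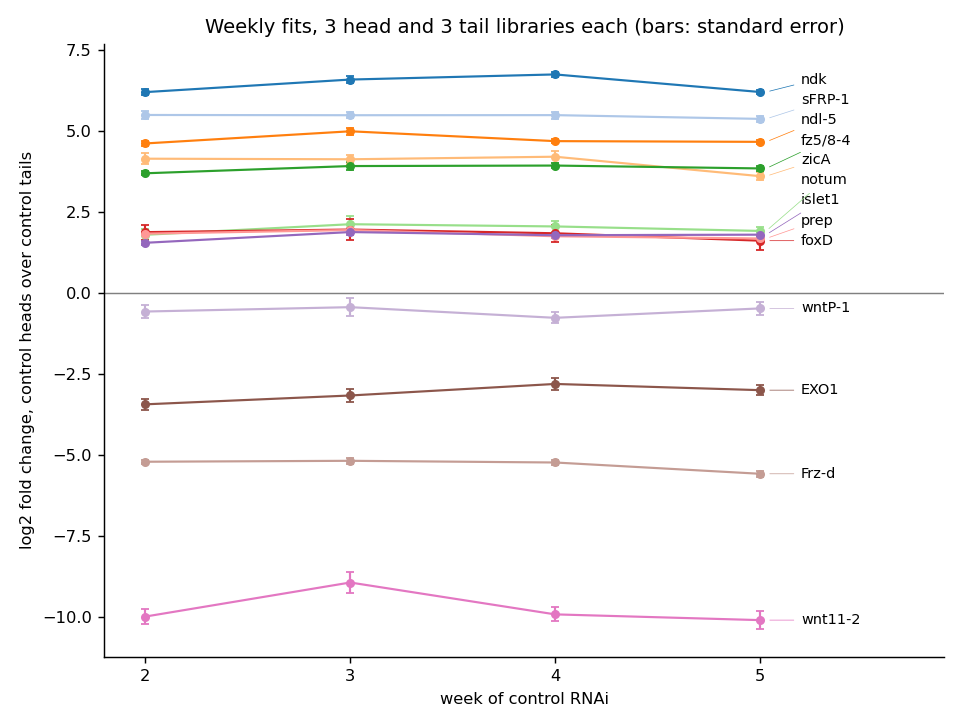
Log2 fold change of 13 named genes in the weekly fits (control heads over control tails, 3 libraries per tissue and week, bars for the approximate standard error) against the week of control RNAi. *ndk* stays between 6.19 and 6.74 and *wnt11-2* between -10.09 and -8.93, and no line crosses 0.

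Whether the head-tail difference varied among weeks was tested directly. Of 19962 contigs, 5 (0.025%) passed the test of interaction between tissue and week (edgeR quasi-likelihood F test, adjusted p below 0.05), 1244 had an unadjusted p below 0.05, and a DESeq2 likelihood ratio test called 38. None of the 5 has a name at hand, and no member of the lists passed, with an adjusted p of 0.613 or more for every named gene. The levels of dd_1317 were 59.2 ± 4.29, 52.0 ± 4.94, 45.0 ± 6.35 and 59.4 ± 5.31 CPM in heads and 43.7 ± 2.99, 54.0 ± 9.57, 71.4 ± 6.70 and 99.3 ± 9.11 CPM in tails at weeks 2, 3, 4 and 5 (SD, n = 3). The mean in tails was thus higher at each later week, and the mean in heads was not. For dd_385 the levels were 13.9 ± 0.741, 30.6 ± 3.61, 30.5 ± 12.1 and 34.9 ± 4.77 CPM in heads and 4.51 ± 2.64, 2.25 ± 1.81, 0.927 ± 0.427 and 13.2 ± 7.999 CPM in tails. Heads were above tails in each week for dd_385, with the widest gap at week 4. The number of contigs called rested on single libraries, since leaving out 1 library at a time gave between 1 and 26, the latter without replicate 1 of the control tails at week 3.

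**Figure D5:**
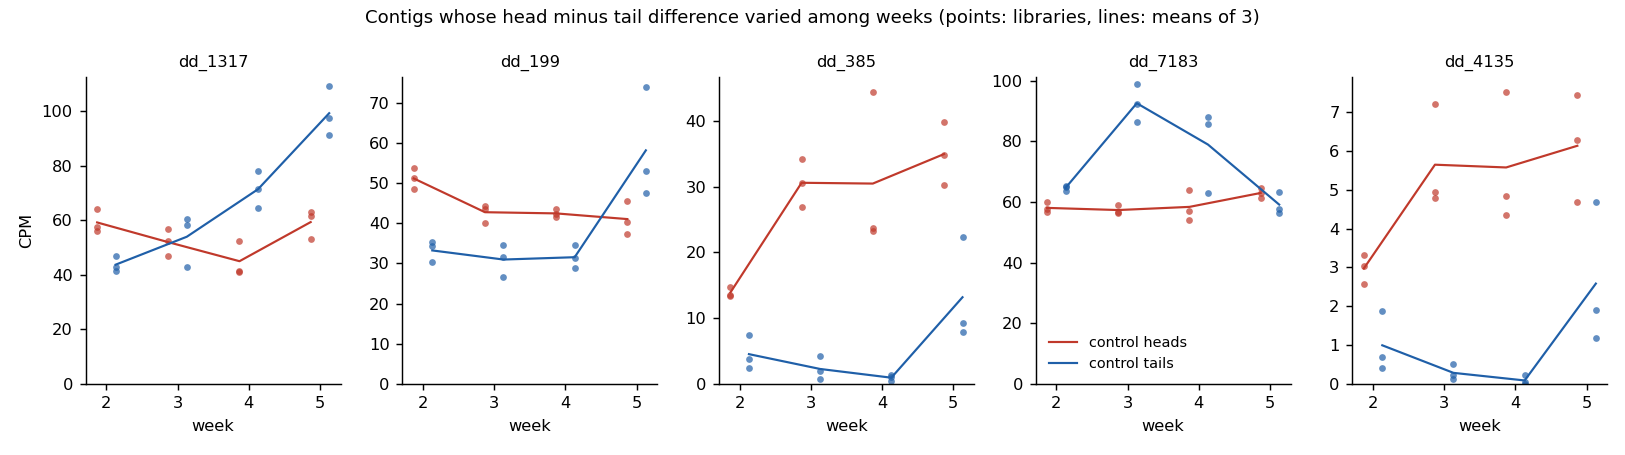
Levels in CPM (vertical axis) of the 5 contigs past the interaction test at weeks 2 to 5, with points for libraries and lines for means of 3, control heads in red and control tails in blue. In dd_1317 the tail mean is 43.7 CPM at week 2 and 99.3 CPM at week 5, in dd_199 tails exceed heads only at week 5, in dd_7183 tails exceed heads most at week 3, and in dd_385 and dd_4135 heads exceed tails most at week 4.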

How the data were processed

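Polyadenylated RNA was sequenced from TruSeq libraries without strand information. The authors trimmed reads with Trimmomatic 0.32, mapped them with bowtie 1 (minor version not given in the sources used here) to the dd_Smed_v4 transcriptome and deposited raw counts per contig, whole numbers without normalization, in 1 table per tissue. The head table had 26566 rows, of which 4 were not contigs and were left out, and the tail table had 38633 rows. Rows were summed by contig number, which gave 26401 contigs in both tables. The authors' tables of their own comparison hold group means, fold changes and p-values of *nr4A(RNAi)* against control and were not used. No column was left unmapped.

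Counts of the 24 control libraries were filtered (filterByExpr, minimum count 10, minimum total 15), scaled by TMM and tested with edgeR 4.0.16 (R 4.3.3, limma 3.58.1) by quasi-likelihood F tests with 8 group means, on the mean over weeks of head minus tail, on each week in separate fits, and on the interaction, with Benjamini-Hochberg adjustment over all contigs tested and a threshold of 0.05. A second rule asked for at least a 2-fold difference. The code was tested on simulated data. Gene lists were described by counts and medians, without a test. Ratios with 1 to 3 counts in a tissue have exact 95% intervals that cover counting error only. The ± values of log2 fold changes are approximate standard errors, the absolute log2 fold change divided by the square root of the F statistic. For contigs with few counts in a tissue, such as *wnt11-2*, *Smed-asns*, dd_15036 and dd_12467, they are smaller than counting error alone.

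Named genes were all tested members of the patterning and signalling lists, *nr4A* and the *nr4A*-regulated list, up to 4 members of each other list with the largest difference and the same sign in all 4 weeks, the 10 named contigs with the largest difference in each direction at a mean of at least 1 CPM, and 2 unnamed ones in each direction. The members and lists were chosen with earlier results of these data known. Alternatives were other scaling (RLE, total counts), other filters, DESeq2 1.42.0, a replicate block, contigs with 1 row in the tail table, all 48 libraries, and leaving out each library or week. List counts under these alternatives were added after seeing the data. No genome was used here, and contig sequences were not used here.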

Additional observations from a re-analysis of the deposited data

Results flagged for a closer look

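The 5 contigs whose head-tail difference varied among weeks are listed with their adjusted p from the edgeR interaction test. For dd_1317 (adjusted p = 0.003247) the weekly log2 fold changes were 0.43, -0.00, -0.65 and -0.72 at weeks 2, 3, 4 and 5, and the contig passed in 24 of 24 fits that left out 1 library, with adjusted p between 6.61e-10 and 0.0252 over its alternatives. For dd_199 (adjusted p = 0.01281) they were 0.61, 0.51, 0.44 and -0.50, and it passed in 22 of 24 such fits (range 1.11e-06 to 0.119). For dd_385 (adjusted p = 0.03322) they were 1.58, 3.80, 5.04 and 1.33, and it passed in 11 of 24 (range 0.00294 to 0.138). For dd_7183 (adjusted p = 0.04517) they were -0.16, -0.65, -0.42 and 0.10, and it passed in 5 of 24 (range 9.13e-05 to 0.158). For dd_4135 (adjusted p = 0.04517) they were 1.52, 4.33, 5.96 and 1.10, and it passed in 7 of 24 (range 9.13e-05 to 0.156).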

How the results depend on the processing

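The count of contigs that differed between heads and tails in the mean of the 4 weeks was 14461 of 19962 tested. Over all alternatives it lay between 10579 (of 12741 tested), with a mean of at least 100 normalized counts required, and 15448 (of 26046), with no filter. The share of tested contigs that differed was above 72.4% with that mean required and below it with no filter. Requiring that mean also left 2071 contigs with at least a 2-fold difference in place of 3791, and 2121, 2164, 1949 and 2056 at weeks 2, 3, 4 and 5, where fewer contigs were tested. Scaling by total counts alone gave 8223 contigs higher in heads and 6194 higher in tails. The interaction count of 5 became 1 under the filter on the mean, 38 with DESeq2, and 1 to 26 when 1 library was left out (26 without replicate 1 of the control tails at week 3 and 11 without replicate 1 of the control tails at week 4). The cause was not tested. No source says that a replicate number links a head to a tail library. Of the 12 head and tail pairs with the same week and number, 7 had deviations correlated above 0.1 (range -0.40 to 0.40), all 6 at weeks 3 and 4 among them, and 8 of 12 heads correlated best with their own number, a hint of pairing in some weeks from the data and not the design. Since not every pair was above 0.1, the numbers were not used as pairs. A replicate block gave 14421 contigs, 3810 of them with at least a 2-fold difference, and an interaction count of 13.

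Over all alternatives the log2 fold changes of the 95 named contigs kept direction and side of the threshold in 3337 values, gained a call in 13 values (6 contigs) and lost one in 16 (4 contigs, 3 collagens and *Vang-2*). Direction reversed in 11 values of 4 contigs near 0 that did not pass. These were *smad4* (-0.0056 without replicate 3 of the control tails at week 3, and up to 0.056 without another library), *ACVR1* (-0.0012 without replicate 2 of the control tails at week 5, -0.0035 without week 4, and up to 0.054 without another library), *smoothened* (0.051 with total counts, 0.00040 with the mean of 100 required, 0.0019 with single rows, 0.0024 without replicate 3 of the control heads at week 5, down to -0.0345 without another library, and 0.0029 without week 4) and *FGFR4* (0.035 with total counts, 0.0106 without week 3 and 0.0012 without week 4). Tissue and batch could not be separated under any alternative. Contigs counted in 1 row of the tail table were at least 2-fold higher in heads in 13.1% and in tails in 7.70% of cases, and those counted in several rows in 7.07% and 5.63%. Genes such as *foxD* and *musculin* rest on few counts.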
